A study of Mus musculus with 6 samples.

Results

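This report describes 9 genes, of 18429 in the count matrix, in single wild-type (WT) and Rad21-/- macrophages before and after LPS, a bacterial cell wall component that activates macrophages. Of these, 8 belong to the oxidative stress response of the transcription factor Nrf2, namely Nfe2l2, Sqstm1, Hmox1, Gclm, Slc7a11, Prdx1, Srxn1 and Txnrd1. The remaining gene, Sod2, encodes the mitochondrial superoxide dismutase. They were chosen by name, with no threshold on a measured value, and all 9 were found in the matrix.

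The data are MARS-seq counts, a plate-based single-cell RNA-seq in which each transcript molecule is counted once by its unique molecular identifier (UMI). The cells were bone marrow-derived macrophages grown in L929-conditioned medium from mice of a mixed background that included C57BL/6. WT cells carried intact Rad21, which encodes a subunit of cohesin, the ring complex that holds DNA loops and sister chromatids. The Rad21-/- cells came from Rad21 lox/lox mice, in which the gene is deleted once Cre is active. Both genotypes were creERT2/creERT2 at the Rosa26 locus, so that Cre was present in controls too and was active once 4-hydroxy-tamoxifen was given. All cells, controls included, received 200 nM 4-hydroxy-tamoxifen from 96 h of culture and were used at day 7. They were left untreated or were given 10 ng/ml LPS for 2 h or 8 h, which makes 6 samples with 1 sample per group. The samples held 682 WT and 680 Rad21-/- cells in all, with sample medians between 5577 and 7055.5 UMIs per cell. The number of mice behind each sample is not given in the sources used here.

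Because each group is 1 sample, no test was run and no p-value is given. Levels are mean CPM per cell, in which the UMIs of each cell are scaled to a total of 1000000 and all cells weigh the same. Intervals are at 95% and cover counting error only, not differences between cultures, mice or libraries. A gene is called past the fold where 2 samples differ by 2-fold or more and hold at least 50 UMIs of it together, and the share of all genes past the fold stands beside each count of the 9. All 9 genes met this minimum in all 9 comparisons. Cells came from 24 library pools, numbered 1 to 24 here, each with cells of a single time point, so that time and pool cannot be told apart. Both genotypes were present in 23 of the pools, and genotypes could be compared within 8 untreated, 4 2 h and 6 8 h pools that had at least 10 cells of each. Pools are parts of 1 sample and not replicates, and pool ranges are given over pools with at least 10 cells of the sample. Overlap of pools was looked at for the 9 genes only. The share of all genes without overlap is not given, so pools that do not overlap are a description of a gene.

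Some wells and markers bear on all values. A total of 17 wells held more than 25000 UMIs, and they made up 45.5% of the UMIs of the WT 2 h sample but weigh no more than other cells here. Of 9 macrophage markers, 8 were found in at least 50% of all cells. Their summed level ran from 8075 to 10870.3 CPM in WT and from 6574 to 7491 CPM in Rad21-/- samples. Of 9 neutrophil markers 2 were in the matrix, with summed levels of at most 13.4 CPM, those of B cells, T cells, dendritic cells, mast cells and the other lists summed to at most 69.8 CPM in each sample, and the 6 erythroid markers listed for the check are not in the matrix. Rad21 itself was at 60.9, 50.2 and 34.2 CPM in WT cells and at 4.90, 8.15 and 8.60 CPM in Rad21-/- cells, untreated, at 2 h and at 8 h. The genotype labels and the Rad21 counts therefore point the same way in every sample. The remaining Rad21 counts rest on 10 to 14 UMIs per sample.

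Nrf2, the product of Nfe2l2, is held in the cytoplasm and passed on for degradation by Keap1. When reactive cysteines of Keap1 are modified by oxidants or electrophiles, Nrf2 accumulates, pairs with a small Maf protein and binds antioxidant response elements of genes for glutathione synthesis, thioredoxin, peroxiredoxin and haem breakdown. The autophagy receptor encoded by Sqstm1 can bind Keap1 and is itself a target gene. Sod2 turns superoxide into hydrogen peroxide in mitochondria and is a known target of NF-kappaB, the factor that LPS activates through Toll-like receptor signalling. Nrf2 activity is set largely at the level of its protein, which these data do not measure.

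In the GRCm38.p6 gene table of RefSeq, a later patch of the GRCm38.p4 assembly to which the authors mapped, the regulator genes lie at chr2:75675513-75704663 for Nfe2l2 and chr11:50200152-50210820 for Sqstm1. The enzyme and transporter genes span chr8:75093618-75100593 for Hmox1, chr3:122245487-122267215 for Gclm, chr3:50364936-50499087 for Slc7a11, chr4:116685599-116700000 for Prdx1, chr2:152105524-152111376 for Srxn1, chr10:82833951-82897724 for Txnrd1 and chr17:13007839-13018119 for Sod2. Prdx1, Gclm and Txnrd1 each overlap at least 1 other gene of that table, such as the lncRNA AV051173 at Prdx1 and the protein-coding Eid3 at Txnrd1. The authors counted unambiguously mapped reads only, and reads of the overlaps could not be separated further here.

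RefSeq promoter windows, 250 bases before to 50 bases after a start, were at hand for 8 of the 9 genes, with 3 windows for Txnrd1, and not for Hmox1. They are shown because 1 of the motifs is the element that names the group and another the element of the factor that LPS activates. The core of the antioxidant response element, TGACNNNGC, was searched on both strands and was present in 5 of the 10 windows, 1 for each of 5 genes, against 12.4% of 32851 mouse windows. In Nfe2l2, Gclm, Prdx1 and Txnrd1 the match lies before the start, and in Srxn1 it lies after it. The NF-kappaB consensus was present in 3 of the 10, those of Prdx1, Sqstm1 and Sod2, against 8.46% of windows. The AP-1 site TGACTCA was present in 2 of the 10, those of Prdx1 and Srxn1, against 5.20%, and 1 of the Prdx1 matches overlaps the antioxidant response element core. Each line gives 5′ to 3′ on the strand of the gene, with the matching bases in capitals, which read as the reverse complement where the match is on the other strand.
Nfe2l2, antioxidant response element core, chr2:75704885-75704913, minus strand: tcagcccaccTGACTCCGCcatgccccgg
Gclm, antioxidant response element core on the other strand, chr3:122245413-122245441, plus strand: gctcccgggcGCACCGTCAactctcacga
Prdx1, antioxidant response element core on the other strand, chr4:116685456-116685484, plus strand: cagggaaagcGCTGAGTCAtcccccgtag
Txnrd1, antioxidant response element core on the other strand, chr10:82859104-82859132, plus strand: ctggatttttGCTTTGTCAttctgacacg
Srxn1, AP-1 site on the other strand, chr2:152105469-152105495, plus strand: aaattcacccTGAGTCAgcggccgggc
Sqstm1, NF-kappaB consensus on both strands, chr11:50210821-50210848, minus strand: cccacgaggcGGGGCTCCCCcgttttct
Sod2, NF-kappaB consensus on both strands, chr17:13007746-13007775, plus strand: cggggcggacGGGGTTCCCCgaggcggggc
No binding was measured, so a match describes the letters of the window and not a used site. Slc7a11 held none of the 3 motifs in its window.

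After LPS, Sod2 and Sqstm1 were past the fold at both times in both genotypes, and Txnrd1 was past it at both times in Rad21-/- cells alone. Gclm and Slc7a11 were past it in Rad21-/- cells at 8 h. Nfe2l2, Hmox1, Prdx1 and Srxn1 differed from untreated by less than 2-fold at both times in both genotypes, as did Txnrd1, Gclm and Slc7a11 in WT cells. In WT cells at 2 h 2 of the 9 genes were past the fold, Sqstm1 and Sod2, against 8.65% of all genes. At 2 h in Rad21-/- cells, 3 of the 9 were past it, Txnrd1, Sqstm1 and Sod2, against 6.44%. At 8 h against untreated it was 2 of 9 in WT, again Sqstm1 and Sod2, against 23.5% of all genes, and 5 of 9 in Rad21-/- cells, Gclm, Txnrd1, Slc7a11, Sqstm1 and Sod2, against 13.1%. No member was lower past the fold in any of the 9 comparisons, where between 2.73% and 15.6% of all genes were. The LPS comparisons of a genotype share its untreated sample and are set side by side without a measure of likeness.

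**Figure D1:**
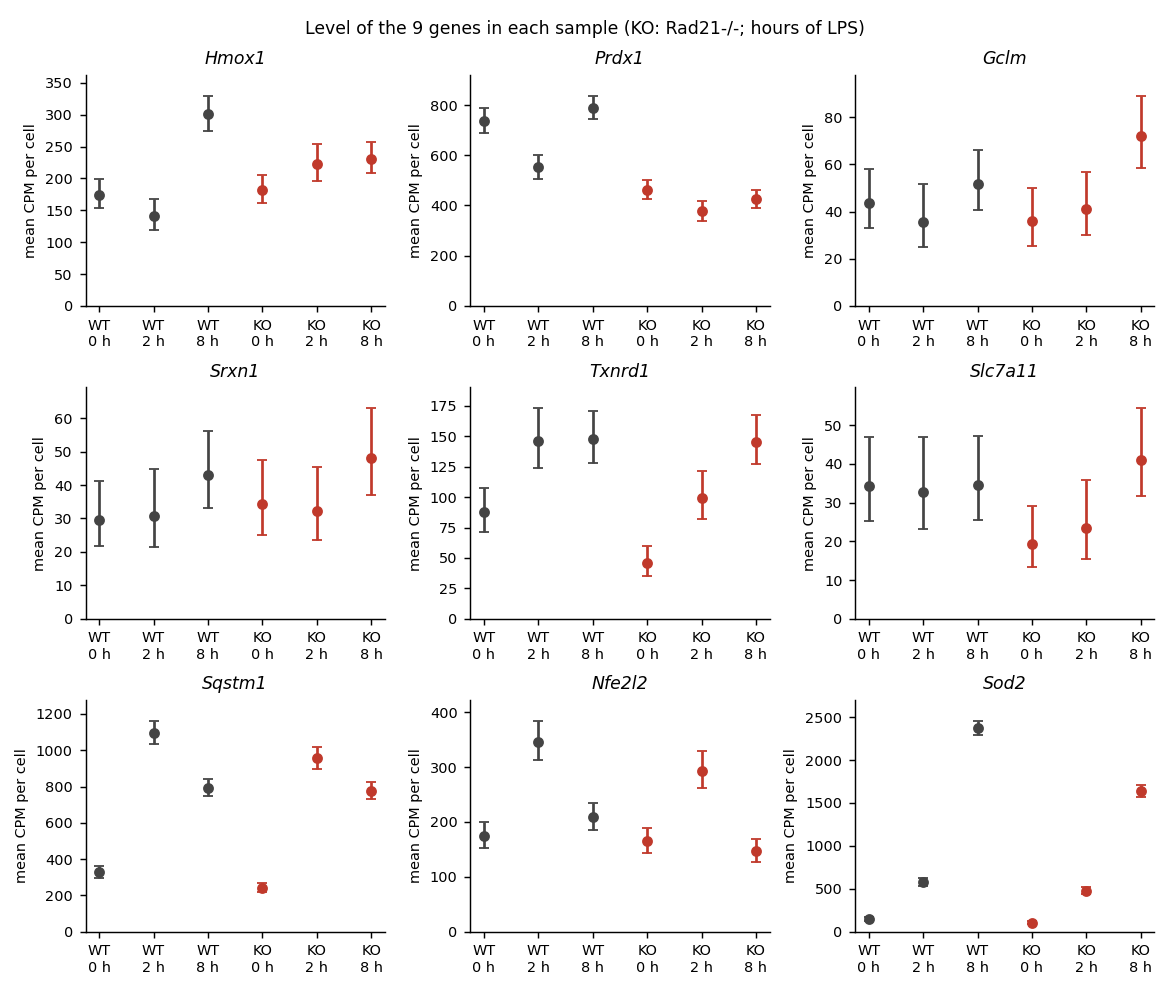
Mean CPM per cell of the 9 genes, 1 panel each with its own axis from 0, in WT (grey) and Rad21-/- (KO, red) samples untreated and after 2 h and 8 h of LPS, with 95% counting intervals and 1 sample per point. Sod2 reached 2369 CPM in WT and 1636 CPM in Rad21-/- cells at 8 h, whereas Sqstm1 and Nfe2l2 were highest at 2 h in both genotypes.

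Among the regulators, Nfe2l2 had its highest level at 2 h. In WT cells it was at 174 CPM untreated (152 to 200), 346 CPM at 2 h (313 to 384) and 209 CPM at 8 h (185.6 to 235). Rad21-/- cells stood at 164.5 CPM (144 to 188), 293.5 CPM (261.5 to 329.7) and 146.8 CPM (128 to 169.3). The 2 h level was 1.99-fold the untreated one in WT, just short of the fold, and 1.78-fold in Rad21-/- cells. The 8 h level of Rad21-/- cells was below that of 2 h by 1.0 on the log2 scale (interval -1.26 to -0.74), also just short of the fold. Both were past it without 1 pool, at 1.21 without pool 1 and at -1.12 without pool 15 on the log2 scale. Without pool 4 the WT ratio was 0.86, and without pool 20 the Rad21-/- ratio was -0.95. At 2 h 73.3% of WT cells and 63% of Rad21-/- cells held an Nfe2l2 UMI after all cells were thinned to 3800 UMIs, against 43.2% and 44.4% untreated. The pools of Rad21-/- cells at 2 h, from 211.5 to 318 CPM, lay above all untreated pools, from 108.5 to 202 CPM, and above all 8 h pools, from 62.5 to 178.3 CPM. In WT cells the pools of the 2 h sample, from 218 to 425 CPM, overlapped the untreated ones, from 93.9 to 277 CPM.

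Sqstm1 encodes the autophagy receptor that links ubiquitinated cargo and Keap1 to autophagosomes and is a target gene of Nrf2. Its level was also highest at 2 h in both genotypes. At 8 h Sqstm1 was above untreated in both genotypes, whereas Nfe2l2 in Rad21-/- cells was at 0.892-fold its untreated level. Sqstm1 was at 329.6 CPM (298 to 364), 1094 CPM (1033 to 1159.7) and 792 CPM (746 to 841) in WT cells untreated, at 2 h and at 8 h. The Rad21-/- samples were at 241 CPM (217 to 269.7), 957 CPM (899 to 1019) and 774 CPM (729 to 823). This is a log2 ratio at 2 h over untreated of 1.73 (1.56 to 1.90) in WT and 1.99 (1.80 to 2.17) in Rad21-/- cells, that is 3.32-fold and 3.97-fold. All pools at 2 h lay above all untreated pools of the same genotype. At 8 h this held in WT, while 1 Rad21-/- pool at 331 CPM lay within the untreated range of 95.5 to 409 CPM. Levels at 8 h were 0.47 (WT) and 0.31 (Rad21-/-) lower than at 2 h on the log2 scale.

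Txnrd1, the cytosolic thioredoxin reductase, was at 87.7 CPM (71.7 to 107.5), 146 CPM (123.8 to 173) and 147.8 CPM (128 to 170.6) in WT cells. The corresponding Rad21-/- levels were 45.8 CPM (35.4 to 59.9), 99.5 CPM (81.7 to 121.6) and 145.6 CPM (127 to 168). The WT ratio was thus already at 1.67-fold at 2 h and at 1.68-fold at 8 h, and that of Rad21-/- cells was 2.17-fold and then 3.17-fold. With all cells thinned to 3800 UMIs the Rad21-/- log2 ratio at 2 h was 0.90, short of the fold, and the WT ratio at 8 h was 1.01, past it. The difference between genotypes in the step to 2 h was 0.38 on the log2 scale, with an interval that crossed 0 (-0.23 to 0.99). All 2 h and 8 h pools of Rad21-/- cells, 80.8 to 174 CPM together, lay above all untreated pools, 25.1 to 75.4 CPM.

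Slc7a11, the cystine importer that feeds glutathione synthesis, was nearly level in WT cells, at 34.2 CPM (25.2 to 47), 32.7 CPM (23.2 to 47) and 34.6 CPM (25.4 to 47.2). It was at 19.4 CPM (13.5 to 29), 23.4 CPM (15.5 to 35.9) and 41.1 CPM (31.7 to 54.3) in Rad21-/- cells. Gclm, the modifier subunit of the enzyme that makes the glutathione precursor, was at 43.5 CPM (32.9 to 58.1), 35.7 CPM (24.8 to 51.6) and 51.7 CPM (40.6 to 66.1) in WT cells and at 35.8 CPM (25.6 to 49.9), 41.1 CPM (29.9 to 56.8) and 71.8 CPM (58.4 to 89.1) in Rad21-/- cells. Both genes were thus 2.12-fold and 2.01-fold higher in Rad21-/- cells at 8 h than untreated and had smaller ratios in WT cells. For Gclm the difference between genotypes in this step was 0.76 on the log2 scale with an interval that crossed 0 (-0.02 to 1.55). These are low counts, with 38 to 96 Slc7a11 UMIs per Rad21-/- sample and 59 Gclm UMIs in the untreated one. Leaving out 1 pool took the log2 ratio of Gclm down to 0.87 (pool 17) and that of Slc7a11 to 0.93 (pool 6), both short of the fold.

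Prdx1, a peroxiredoxin that reduces hydrogen peroxide with thioredoxin, differed by less than 1.5-fold between any times in either genotype. It was at 736 CPM (687 to 788), 552 CPM (507 to 602) and 789 CPM (744 to 838) in WT cells and at 462 CPM (427 to 501), 376 CPM (339 to 418) and 424 CPM (391 to 461) in Rad21-/- cells. The 2 h level was the lowest of the 3 times in both genotypes, by 0.41 below untreated in WT and 0.30 in Rad21-/- on the log2 scale. With 1 pool left out, this ratio lay between -0.67 (pool 13) and -0.22 (pool 14) in WT. In Rad21-/- cells it lay between -0.79 (pool 13) and 0.02 (pool 14), so its direction turned on 1 pool. Rad21-/- pools ran from 79.0 to 978 CPM untreated and from 83.8 to 710 CPM at 2 h. Without scaling to the total of each cell the WT ratio of 2 h over untreated turned to 0.43, where the median of all genes was at 1.06. Srxn1, sulfiredoxin, which restores over-oxidised peroxiredoxins, was close to its untreated level at 2 h and had its highest value at 8 h. It was at 29.6 CPM (21.8 to 41.2), 30.8 CPM (21.6 to 44.8) and 43.1 CPM (33.2 to 56.3) in WT and at 34.4 CPM (25.1 to 47.6), 32.3 CPM (23.5 to 45.5) and 48.0 CPM (37.1 to 62.9) in Rad21-/- cells. All Srxn1 ratios had intervals that crossed 0.

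**Figure D2:**
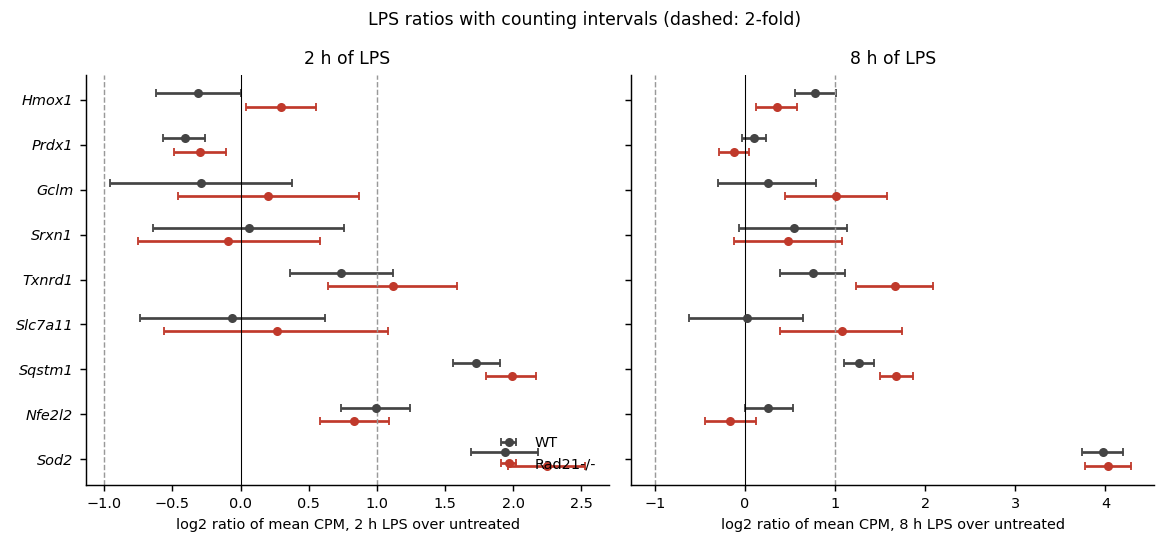
Log2 ratio of mean CPM of LPS-treated over untreated cells, at 2 h (left) and 8 h (right), for WT (grey) and Rad21-/- (red) samples, with 95% counting intervals and dashed lines at 2-fold. Sod2 lies near 4 at 8 h in both genotypes, and Txnrd1, Slc7a11 and Gclm lie past the dashed line at 8 h only for Rad21-/- cells.

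Hmox1, haem oxygenase 1, which breaks haem down to biliverdin, carbon monoxide and iron, was spread unevenly over cells. Its level was 174.6 CPM (153.4 to 199), 141 CPM (119 to 168) and 301 CPM (274 to 330.1) in WT cells and 181 CPM (160.8 to 205), 223 CPM (196 to 254) and 231 CPM (208 to 257) in Rad21-/- cells. In WT, 8 h was 2.13-fold above 2 h, and with Sod2 it made 2 of 9 past the fold in that comparison, against 19.3% of all genes. Among Rad21-/- samples Sod2 alone was past it between 2 h and 8 h, 1 of 9 against 11.3%. The WT value rests on few cells and pools. Pool 22 alone stood at 864 CPM from 25 cells, the other WT 8 h pools at 119 to 399.6 CPM, and without pool 22 the log2 ratio of 8 h over 2 h went from 1.09 to 0.77, and without pool 15 of the 2 h sample to 0.98. Among untreated WT pools, pool 8 was at 623 CPM from 13 cells, and the other 7 were at 92.3 to 217 CPM. Without pool 8 the log2 ratio of 8 h over untreated in WT went from 0.78 to 1.02, past the fold, and without pool 22 to 0.46.

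Much of the high values came from single cells. In pool 8 a single cell held 76 of the 306 Hmox1 UMIs of the untreated WT sample, with 12499 UMIs in all and with 8 Txnrd1, 4 Slc7a11 and 1 Prdx1 UMIs. In the WT 8 h sample, 2 of the 3 cells highest in Hmox1 came from pool 22, with 39 and 19 UMIs. The 3 highest cells held 24.1% of the summed CPM of untreated WT cells, 17.9% at 8 h and 7.95% at 2 h, and in Rad21-/- samples 5.79%, 17.6% and 10.7% in the order untreated, 2 h and 8 h. Without these 3 cells in each sample, a comparison chosen after seeing the data, WT levels were 134, 132.1 and 249.8 CPM and Rad21-/- levels 173, 187 and 209 CPM.

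Prdx1 was also uneven over cells, and some of the cells highest in it held Gclm and Srxn1 while others held neither. The 2 WT 8 h cells with the highest Prdx1 were both in pool 17, with 54 and 38 Prdx1 UMIs of 4865 and 5057 UMIs in all. They also held 5 and 12 Gclm, 4 and 7 Srxn1 and 21 Sqstm1 UMIs each. In the whole sample Gclm was found in 21.8% and Srxn1 in 16.3% of cells. The highest untreated Rad21-/- cell, in pool 4, held 22 Prdx1, 5 Gclm, 4 Srxn1 and 17 Sqstm1 UMIs. The highest Rad21-/- 8 h cell held 18 Prdx1, 3 Gclm and 2 Srxn1 UMIs. By contrast, the WT 8 h cell next in order, with 20 Prdx1 UMIs, held 0 Gclm and 0 Srxn1 UMIs. The highest WT 2 h and Rad21-/- 2 h cells, with 25 and 34 Prdx1 UMIs, also held 0 of each. The highest untreated WT cell held 31 Prdx1, 0 Gclm and 1 Srxn1 UMIs. These cells were looked up by their Prdx1 and carry no test.

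Sod2 differed most over time of the 9 genes. It was at 151 CPM (129.7 to 176), 578 CPM (534 to 626) and 2369 CPM (2288 to 2452) in WT cells untreated, at 2 h and at 8 h. Rad21-/- samples were at 100.3 CPM (84.7 to 119), 477 CPM (434 to 523) and 1636 CPM (1570.1 to 1704). At 2 h this is 3.83-fold in WT and 4.75-fold in Rad21-/- cells, and at 8 h 15.7-fold and 16.3-fold over untreated. The log2 ratio at 8 h was 3.97 (3.74 to 4.2) in WT and 4.03 (3.77 to 4.28) in Rad21-/- cells, and the difference between genotypes of 0.06 had an interval from -0.29 to 0.39. At each step, from untreated to 2 h and from 2 h to 8 h, all pools of the later time lay above all pools of the earlier one in both genotypes. At 8 h, 100% of WT cells and 99.1% of Rad21-/- cells held a Sod2 UMI. No cells that lack the gene were identified in these samples, so the background of free RNA in such shares was not measured.

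**Figure D3:**
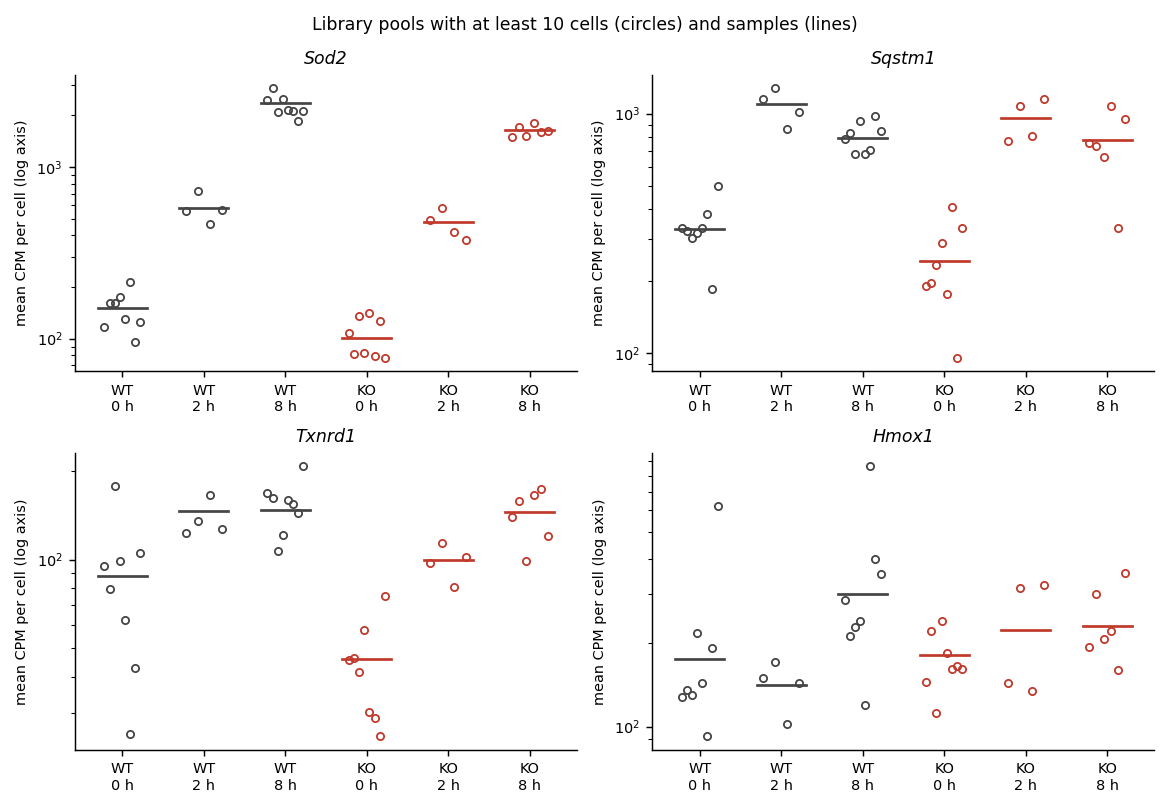
Mean CPM per cell on a log axis for Sod2, Sqstm1, Txnrd1 and Hmox1 in each library pool with at least 10 cells (circles) and in the whole sample (lines), WT in grey and Rad21-/- (KO) in red. Sod2 pools at 8 h lie between 1862 and 2883 CPM in WT and between 1497 and 1806 CPM in Rad21-/- cells without overlap, while single Hmox1 pools at 623 and 864 CPM stand above the other WT pools.

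The LPS ratios were also split by cells. Each cell was thinned to 3800 UMIs, which left out 21 to 47 cells per sample, and the log2 ratio of the mean was split into the part due to the share of positive cells and the part due to UMIs per positive cell. For Sod2 at 8 h the share part was 1.25 and the level part 2.62 in WT, and 1.69 and 2.42 in Rad21-/- cells. WT cells with Sod2 held 1.43 UMIs when untreated and 8.80 at 8 h, and Rad21-/- cells 1.15 and 6.13. For Sqstm1 the level part was also larger at 8 h, at 0.86 against 0.35 in WT and 0.92 against 0.54 in Rad21-/- cells. The Txnrd1 ratio was mainly share, with 0.85 of share and 0.16 of level in WT and 1.38 and 0.28 in Rad21-/- cells. Thinned shares of Txnrd1 were 21.9% (16.2 to 28.4%) untreated and 39.5% (33.1 to 46.1%) at 8 h in WT, and 16.1% (11.6 to 21.6%) and 41.9% (35 to 49%) in Rad21-/- cells. The unthinned shares were 33.5% and 52.9% in WT and 23.7% and 58% in Rad21-/- cells. For Slc7a11 and Gclm in Rad21-/- cells the share parts were 1.14 and 1.43 and the level parts 0.00 and 0.09. The split depends on abundance at this depth. A gene with about 1 UMI per positive cell has little room for a level part, and Sod2, at thinned shares of 100% and 98.5% at 8 h, had no room for more of a share part, so the split does not by itself set these genes apart.

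**Figure D4:**
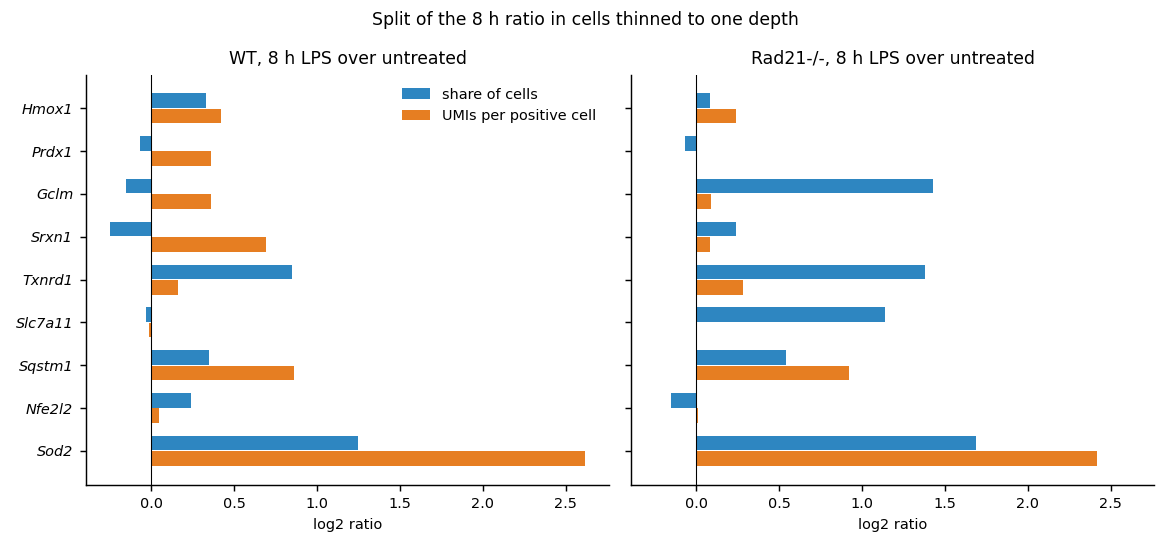
Split of the log2 ratio at 8 h of LPS over untreated into the share of positive cells (blue) and the UMIs per positive cell (orange), in WT (left) and Rad21-/- (right) cells thinned to 3800 UMIs each. The orange bar is the longer one for Sod2 and Sqstm1, and the blue bar for Txnrd1 in both genotypes and for Gclm and Slc7a11 in Rad21-/- cells.

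Comparing genotypes at the same time, Prdx1, Txnrd1, Slc7a11, Sqstm1 and Sod2 were lower in untreated Rad21-/- cells, and Prdx1, Nfe2l2 and Sod2 were lower after 8 h. None of the 9 genes was past the fold at any time. The share of all genes past it was 6.03% untreated, 9.63% at 2 h and 13.4% at 8 h. The summed macrophage markers were also lower in Rad21-/- cells, at 6717 against 10059 CPM untreated, 7491 against 10870.3 CPM at 2 h and 6574 against 8075 CPM at 8 h, and their part in the differences was not tested.

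Prdx1 had the same direction in every pool. Its log2 ratio of Rad21-/- over WT was -0.67 (-0.82 to -0.52) untreated, -0.55 (-0.75 to -0.36) at 2 h and -0.90 (-1.04 to -0.75) at 8 h. It was lower in Rad21-/- cells in 8 of 8, 4 of 4 and 6 of 6 pools. The median log2 ratio of all genes at 8 h was 0.20, so that the Prdx1 ratio relative to it was -1.10. Without pool 17 the 8 h ratio was -1.01, past the fold, and without pool 20 it was -0.73. The split at 8 h gave -0.28 for share and -0.70 for level.

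Sod2 had ratios of -0.59 (-0.92 to -0.26), -0.28 (-0.45 to -0.10) and -0.53 (-0.61 to -0.46), and was lower in 6 of 8, 4 of 4 and 6 of 6 pools. The parts of the 8 h difference were -0.02 for share and -0.52 for level. Nearly every cell of both genotypes was therefore positive, and WT cells held more UMIs. Nfe2l2 differed little when untreated, at -0.08 (-0.36 to 0.20), and was lower at 8 h, at -0.51 (-0.77 to -0.24), in 6 of 6 pools. Without scaling to the total of each cell the Nfe2l2 ratio at 8 h turned to 0.10, where the median of all genes was at 0.62.

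Txnrd1 was nearest to the fold when untreated, at -0.94 (-1.41 to -0.45) and lower in 7 of 8 pools, and without pool 8 it was past it at -1.03. Without pool 3 Txnrd1 was at -0.75. It was at -0.56 (-0.93 to -0.18) at 2 h, where the 4 Rad21-/- pools, 80.8 to 114.2 CPM, lay below all 4 WT pools, of which the highest was at 166 CPM. At 8 h the ratio was -0.02 (-0.31 to 0.27). Slc7a11 stood at -0.82 (-1.51 to -0.09), -0.48 (-1.27 to 0.31) and 0.25 (-0.34 to 0.85) in the order of times. The step from untreated to 8 h was thus larger in Rad21-/- cells by 0.91 (0.35 to 1.47) for Txnrd1 and by 1.07 (0.13 to 1.99) for Slc7a11 on the log2 scale, a difference that was not tested.

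Hmox1 was higher in Rad21-/- cells at 2 h, at 0.66 (0.35 to 0.96), in 3 of 4 pools, and lower at 8 h, at -0.38 (-0.58 to -0.18), in 4 of 6 pools. The 8 h ratio was -0.06 without pool 22. Gclm was at -0.28 (-0.92 to 0.34), 0.20 (-0.50 to 0.91) and 0.47 (0.01 to 0.94), and Srxn1 at 0.22, 0.07 and 0.16 with intervals across 0. Sqstm1 was lower in untreated Rad21-/- cells at -0.45 (-0.66 to -0.23), in 7 of 8 pools, at -0.19 (-0.32 to -0.07) at 2 h, and at -0.03 (-0.15 to 0.09) at 8 h. Its 2 h ratio turned to 0.02 with UMIs summed over all cells, in which deep wells weigh more.

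**Figure D5:**
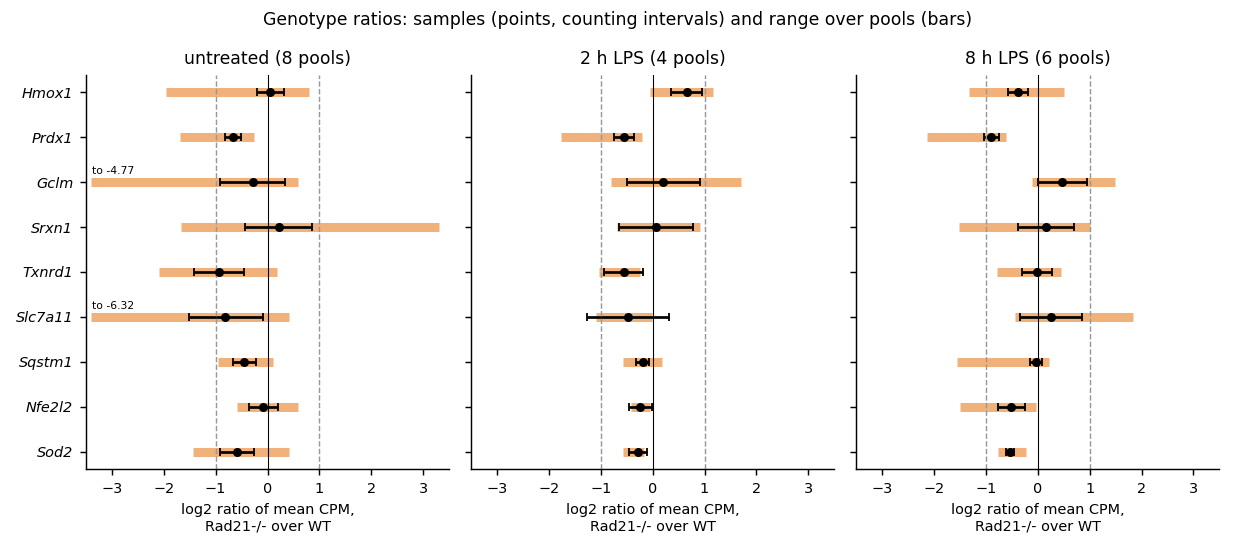
Log2 ratio of mean CPM of Rad21-/- over WT cells, untreated, at 2 h and at 8 h of LPS, with the samples as points with 95% counting intervals and the lowest to highest ratio over pools with at least 10 cells of both genotypes as bars, dashed lines at 2-fold. Bars leave out 1 untreated pool each for Srxn1 and Slc7a11, where a genotype had no UMI, and the ratio of Prdx1 lies below 0 in every pool.

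The wider Nrf2 pathway gave a mixed picture. Of 24 other Nrf2 target genes, 20 had enough counts in WT cells at 2 h, and none was past the fold. Their median log2 ratio was -0.30 beside -0.09 for all genes. At 8 h 4 of 19 were higher past the fold (Procr, Gsr, Txn1 and Esd) and 5 lower (Blvra, Trib3, Taldo1, Slc48a1 and Ftl1), with a median of -0.06 beside -0.23. That is 9 of 19 past the fold in either direction, beside 23.5% of all genes. Gsr, glutathione reductase, was 2.79-fold higher in WT cells at 8 h, with a log2 interval of 0.86 to 2.09. Procr, the endothelial protein C receptor, went from 3 to 208 UMIs, a 51.7-fold ratio with a log2 interval of 3.44 to 8.17. Blvra, biliverdin reductase A, which acts after haem oxygenase, was 3.08-fold lower with 40.3 CPM. Trib3, a pseudokinase of the stress response, was 2.97-fold lower. At 8 h the same 4 genes were higher past the fold, out of 20 in Rad21-/- cells, and Slc48a1 was lower, beside 13.1% of all genes past it.

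Between genotypes, Gstm1, a glutathione transferase, stood out with 298 CPM in untreated Rad21-/- cells, 3.37-fold the WT level, and 306 CPM at 2 h, 3.30-fold. At 8 h Gclc, the catalytic partner of Gclm, was 2.82-fold higher in Rad21-/- cells on 48 UMIs against 13, and Procr was 3.39-fold lower. Slc48a1, a haem transporter, was higher in Rad21-/- cells by 2.03-fold at 2 h and 2.08-fold at 8 h. Esd was 2.06-fold lower at 2 h. Past the fold were 1 of 19 of these targets untreated, 3 of 18 at 2 h and 3 of 19 at 8 h, beside 6.03%, 9.63% and 13.4% of all genes.

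Among 11 regulators and partners of Nrf2, Maff, a small Maf protein that pairs with Nrf2, was the only one past the fold at 2 h. It was at 60 CPM in WT cells, 13.9-fold above untreated with a log2 interval of 2.21 to 5.56, and 9 of the 11 had enough counts, beside 8.65% of all genes past the fold. At 8 h Maff was 2.57-fold higher in Rad21-/- than in WT cells. Of 8 autophagy-related genes listed beside Sqstm1, not all of them receptors, 7 had enough counts in WT at 2 h. None of the 7 was past the fold there, in contrast to Sqstm1. At 8 h Tax1bp1, a ubiquitin-binding autophagy receptor, was 4.12-fold higher and Gabarapl1 2.25-fold lower in WT, 2 of 7 beside 23.5% of all genes. Between genotypes at 8 h Tax1bp1 was 2.43-fold lower in Rad21-/- cells, and Gabarapl1 and Gabarapl2 were 2.83-fold and 2.26-fold higher. When thinned, the log2 ratio of Gabarapl2 was 0.83, short of the fold. Gabarapl1 was also 2.05-fold higher at 2 h. Of 7 with enough counts, 2 were higher and 1 lower past the fold at 8 h, beside 13.4% of all genes. At 2 h 1 was higher and 0 lower, beside 9.63% of all genes.

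Among other enzymes against peroxide and superoxide, Prdx5 was higher past the fold in WT cells at 2 h and in both genotypes at 8 h. Of 17 with enough counts in WT at 2 h, Prdx5, a mitochondrial and peroxisomal peroxiredoxin, was past the fold at 2.05-fold, beside 8.65% of all genes. At 8 h in WT Prdx5 was at 1429.9 CPM, 9.38-fold above untreated, and 4 of 16 were lower past the fold (Cat, Glrx5, Gpx1 and Ccs), beside 23.5% of all genes past it in either direction. Cat, catalase, was 2.42-fold lower and Glrx5 2.39-fold lower. Of 17 in Rad21-/- cells, none was past the fold at 2 h, where the log2 ratio of Prdx5 was 0.40. At 8 h in these cells 2 of 17 were higher past it (Prdx5 and Glrx) and 0 lower, beside 13.1% of all genes. Prdx5 at 8 h was 3.05-fold below the WT level in Rad21-/- cells. Glrx, a glutaredoxin, was lower in Rad21-/- cells by 3.16-fold untreated, 3.31-fold at 2 h and 2.22-fold at 8 h, and Gpx1, glutathione peroxidase 1, by 2.30-fold at 2 h. Txnrd2, the mitochondrial thioredoxin reductase, was 4.2-fold and Glrx5 2.28-fold higher in Rad21-/- cells at 8 h. Txnrd2 rested on 39 UMIs against 11, with a log2 interval of 0.71 to 3.43, and its log2 ratio went from 2.07 to 1.27 when thinned. Of 17 with enough counts, 1 was lower past the fold untreated (Glrx), 3 at 2 h (Glrx, Gpx1 and Glrx3) and 2 at 8 h (Prdx5 and Glrx). Higher past it were 0, 0 and 3 (Txnrd2, Glrx5 and Cat), beside 6.03%, 9.63% and 13.4% of all genes past it in either direction.

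Among 8 genes of the phagocyte oxidase and other sources of superoxide, none of 7 was past the fold in WT at 2 h. At 8 h Nos2, the inducible nitric oxide synthase, was at 1255 CPM from 2 UMIs untreated, a 1225-fold ratio with a log2 interval of 7.33 to 13.34, and Cybb, the membrane subunit of the oxidase, was 3.23-fold higher, 2 of 8 beside 23.5% of all genes. At 8 h Nos2 was 8.68-fold lower and Ncf1, a cytosolic subunit, 2.59-fold higher in Rad21-/- than in WT cells. Xdh, xanthine dehydrogenase, was 3.01-fold lower in untreated Rad21-/- cells. As a frame for Sod2, 12 of 12 NF-kappaB target genes were higher past the fold at 2 h in each genotype, beside 8.65% (WT) and 6.44% (Rad21-/-) of all genes, with a median log2 ratio of 3.11 in WT and 3.30 in Rad21-/- cells. From 2 h to 8 h in WT, 2 of these 12 were higher and 2 lower past the fold, beside 19.3% of all genes. Their median log2 ratio in that step was 0.02, and that of Sod2 was 2.04. Tnf was 302-fold and Cxcl10 52.5-fold higher in WT at 2 h, and Ccl5 199-fold and Cxcl10 97.1-fold higher at 8 h. Cxcl10 in Rad21-/- cells was 7.03-fold, 2.39-fold and 5.20-fold below WT in the order of times, Ccl5 was 7.34-fold lower untreated and 2.47-fold at 8 h, and Tnf was 2.44-fold lower at 2 h. Lower past the fold were 2 of 9 of these targets untreated, 3 of 12 at 2 h and 3 of 12 at 8 h, and 0 were higher. Of all genes, 6.03%, 9.63% and 13.4% were past it in either direction. At 8 h 7 of the 12 had a ratio above 0, and their median was 0.05 beside 0.20 for all genes.

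The genes whose levels over the 6 samples were most like those of a member were sought by Pearson's r of log2(mean CPM + 1) among 1615 genes with at least 500 UMIs and a range of at least 1 on that scale. The 6 points share the scaling and the pools of each time, and with so many genes high values of r are common, so these are descriptions. For Sod2 they were Gbp5 (0.997), Lcp2 (0.994) and Irak2 (0.994), and 49 genes had the same rank order. For Sqstm1 they were Tnf (0.997), Nif3l1 (0.996) and Plaur (0.995), and for Nfe2l2 Btg1 (0.980), Btg2 (0.961) and Tgif1 (0.959). For Txnrd1 they were Marcks (0.991), BC048502 (0.987) and Marcksl1 (0.986). Hmox1 was most like Etnk1 (0.986), Rnaset2b (0.973) and Dbnl (0.962), and Prdx1 most like Pi4k2a (0.980), Coro2a (0.965) and Slfn9 (0.964). Gclm was most like Gm8337 (0.974), Eef1e1 (0.970) and Limd2 (0.965), Srxn1 most like Rac2 (0.984), Hcls1 (0.978) and Clec4a1 (0.974), and Slc7a11 most like Ube2l6 (0.974), Adgre1 (0.963) and Eif6 (0.957). None of these lists held another of the 9 genes, but not all of the 9 could enter one. Gclm and Srxn1, with ranges of 0.989 and 0.679, and Slc7a11, with fewer than 500 UMIs, were not among the genes searched.

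Among the 9 genes themselves, the highest r over the 6 samples was 0.87 for Txnrd1 with Sod2, followed by 0.86 for Txnrd1 with Sqstm1 and 0.86 for Gclm with Srxn1. Nfe2l2 had its lowest values with Gclm at -0.56 and with Srxn1 at -0.51. Thinned cells held a median of 3 of the 9 genes when untreated and 4 at 2 h and at 8 h in both genotypes. At least 5 of the 9 were found in 19.8%, 46.7% and 42.5% of WT cells and in 12.1%, 29.2% and 38.4% of Rad21-/- cells.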

How the data were processed

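Macrophages sorted 1 per well were profiled by MARS-seq. The authors demultiplexed the reads, mapped them with GEMTools 1.7.0 to GRCm38.p4 with Gencode M8, discarded poor wells, collapsed UMIs and deposited the resulting raw counts. Their methods state a filter on genes found in under 5% of cells, while 5709 of the 18429 deposited genes do not reach this share. Sample and pool were read from the cell names, and all 1362 cells were used. No doublet caller was run because cells were sorted singly.

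Levels, ratios, shares and thinning used numpy 2.4.6, scipy 1.17.1 and pandas 2.3.3 under Python 3.11.15, with matplotlib 3.10.9 for the plots. Thinning was to 3800 UMIs, which keeps at least 80% of the cells of every sample. Intervals are the Fay-Feuer interval for mean CPM, combined on the log scale for ratios, and the exact Clopper-Pearson interval for shares. A count of 0 entered a ratio as 3 counts. The ratio and interval steps were tested on simulated data. With 1 sample per group no test was run.

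The members and lists were chosen with earlier results of these data known. Genes beyond the 9 and Rad21 were named by a rule, from each list up to 2 highest and 2 lowest past the fold in the WT comparisons of 2 h and 8 h with untreated and in the 3 genotype comparisons, and the 3 most similar genes of each member. The other genes in brackets complete a count and were chosen after their values were seen. Names and windows come from RefSeq tables of GRCm38.p6. Alternatives were thinning, no wells above 25000 UMIs, other scalings and weights, each pool left out, other count minimums, 1.5-fold, thinned shares, at least 2 UMIs for a share and rank correlation, and, chosen after seeing the data, leaving out the 3 highest cells per gene and sample.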

Additional observations from a re-analysis of the deposited data

How the results depend on the processing

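No paired analysis was possible because each group is 1 sample without a replicate number and no test was run that a block could enter. Genotypes were compared within library pools as values only. Of the 15 member ratios past the fold, all kept their direction under every alternative. All 15 stayed past it without wells above 25000 UMIs, with summed UMIs over summed totals, relative to the median of all genes and with equal weight per pool, and 14 did so when thinned, unscaled or without the 3 highest cells.

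The count of members past the fold changed more. In WT at 2 h over untreated (2 of 9) it was 4 unscaled, 1 by thinned shares and 4 at 1.5-fold, and 2 to 3 with a pool left out. In WT at 8 h over untreated (2) it was 1 by thinned shares and 4 at 1.5-fold, and 2 to 3 with a pool left out. In WT at 8 h over 2 h (2) it was 0 by thinned shares and 1 without the 3 highest cells, and 1 to 2 with a pool left out. In Rad21-/- cells at 2 h over untreated (3) it was 2 when thinned or by thinned shares, 4 unscaled or at 1.5-fold, and 3 with each pool left out. At 8 h over untreated in these cells (5) it was 3 to 5 with a pool left out, with 3 without pool 5, 7 or 24. In Rad21-/- cells at 8 h over 2 h (1) it was 2 thinned, without deep wells, relative to the median or without the 3 highest cells, 3 unscaled or with equal pools, 0 by thinned shares and 4 at 1.5-fold, and 1 to 2 with a pool left out. Between genotypes the count of 0 became 1 untreated when thinned or by thinned shares and 4 at 1.5-fold, and 0 to 1 with a pool left out. At 2 h it became 3 unscaled and 1 at 1.5-fold, and stayed at 0 with each pool left out. At 8 h it became 1 relative to the median, with equal pools or at 1.5-fold, and 0 to 1 with a pool left out. The cause of these changes was not tested.

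Of 54 shares of cells, 51 left their counting interval when at least 2 UMIs were asked for and 48 when thinned. Ranked by Spearman's rho, most of the 3 most similar genes gave way to others for 8 of the 9 members, which 6 samples do not order finely. Depth limits Gclm, Srxn1 and Slc7a11 most, with as few as 38, 53 and 59 UMIs of Slc7a11, Srxn1 and Gclm in a sample.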
